A study of Mus musculus with 24 samples.

Results

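Flk1+ and Flk1- cells sorted from mouse embryoid bodies at 95 h of differentiation were compared on the 8 arrays of that time, 4 of each sort, out of 24 arrays in the series. The members are all arrays whose titles name Flk+ or Flk- at 95 h, and every probe of the array entered the comparison. Embryoid bodies are aggregates in which embryonic stem cells differentiate. Flk1 is the receptor for vascular endothelial growth factor encoded by Kdr, and it was the surface marker used for the sort. The series also sampled both sorts at 84 h and at 8 d, again with 4 arrays each, and its title places it in the study of Wnt signalling during endothelial commitment. The genotype of the stem cells, their line, the medium, the purity of the sort and the number of cells are not given in the sources used here. Both sorts come from the same kind of culture, with no treatment named in the labels for either one.

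Flk1 is first expressed by mesoderm that leaves the primitive streak, and Flk1+ mesoderm is known to give rise to blood, endothelium, smooth muscle and heart muscle. Cells leaving the streak go through an epithelial to mesenchymal transition, in which E-cadherin and tight junctions are lost, and they shut down the pluripotency programme. The Flk1- fraction of an embryoid body is a mixture, known to hold undifferentiated cells, other mesoderm and endoderm. In bulk RNA of such sorted fractions, fewer cells of a type and less RNA per cell cannot be told apart.

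Each array carried Cy5-labelled RNA of 1 sample and Cy3-labelled reference RNA of whole mouse pups, both amplified. A value is therefore a log2 ratio of sample over pup reference, with the median of each array set to 0. A positive value means more signal than in pups, which says nothing about one gene against another. The log base and the direction are not given in the sources used here; log2 of Cy5 over Cy3 was assumed, and folds rest on that reading. Under it Kdr, the sort gene, is higher in Flk1+ cells, and under the opposite direction it would be lower. The samples of each sort are numbered 1 to 4, and whether each number stands for a culture of its own is not given in the sources used here. The p-values thus measure only how far these samples scatter, which may be technical. The SD over all features of the difference between the sorts was 0.508 and 0.505 in pairs 1 and 2, against 0.345 and 0.377 in pairs 3 and 4. The Flk1- arrays 1 and 2 were the least alike within a sort, with a correlation of 0.669 across genes, which are not independent replicates. Differences are Flk1+ minus Flk1- in log2 units with the standard error (SE) of a limma fit that pairs samples of the same number, and p-values are adjusted by Benjamini-Hochberg over all 17440 features.

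The sort gene itself separated the groups most. Kdr was at 1.88, 1.73, 1.79 and 1.98 on the Flk1+ arrays and -1.30, -0.998, -1.02 and -0.997 on the Flk1- arrays. All 4 Flk1+ arrays lay above all 4 Flk1- arrays, by between 2.73 and 3.19 within the pairs. The means were 1.85 ± 0.11 and -1.08 ± 0.15 (SD, n = 4 each), a difference of 2.93 ± 0.11 (SE), or 7.61-fold, with an adjusted p of 0.00565. Kdr also had the largest difference of all 17440 features in the positive direction. Since the cells were sorted on its product, this checks the labels and is not a finding.

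At an adjusted p under 0.05, 151 of 17440 features were called, or 0.866%. Of these, 52 were higher in Flk1+ cells (0.298% of all features) and 99 were lower (0.568%). A gene symbol was listed for 45 of the higher and 79 of the lower features. All 151 had the same sign in all 4 pairs, and for 144 of them the 4 and 4 arrays did not overlap; over all features 838 did not overlap (4.81%). The median difference of all features was -0.0035, and 1945 features (11.2%) had an unadjusted p under 0.05. The smallest adjusted p outside the call was 0.0509, shared by Tle3, Trim12c and Fbxo15, and the last genes inside it were Plekhf2 with 0.0482, Tgfb2 with 0.0486 and Aga with 0.0492. Leaving out any 1 pair left 0 to 3 calls in limma, while between 1284 and 2294 features had an unadjusted p under 0.05. All 151 signs were kept, which had to follow from their having the same sign in all 4 pairs. With the spread estimated over all 24 arrays and a pair left out at 95 h, an alternative chosen after seeing the data, 384 to 485 features were called and 128 to 131 of the 151 were among them.

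**Figure D1:**
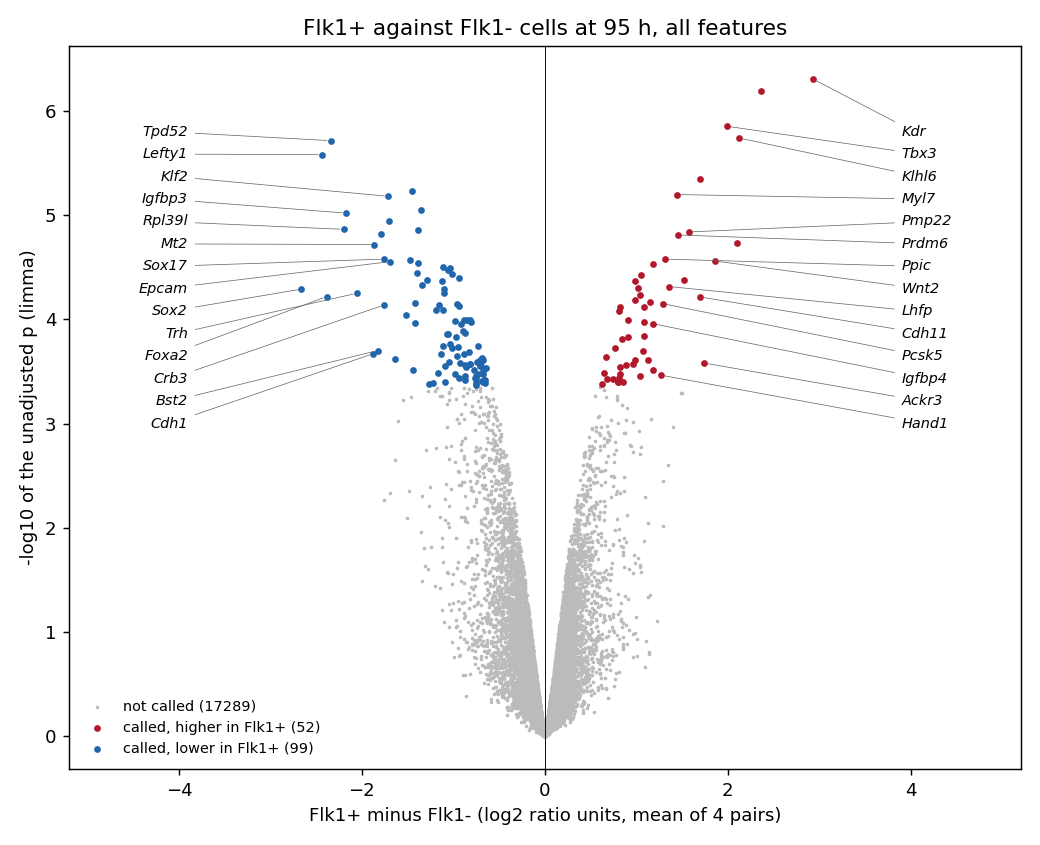
Difference between Flk1+ and Flk1- cells at 95 h (horizontal axis, log2 ratio units, mean of 4 pairs) against the -log10 of the unadjusted limma p (vertical axis) for 17440 features. The 52 features called higher are red, the 99 called lower are blue, and Kdr lies at 2.93, the point farthest to the right.

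Genes of lateral plate and extraembryonic mesoderm, the mesoderm of the heart, the limb field, the body wall and the yolk sac, were on the Flk1+ side. Of 24 measured genes of this group 5 were called higher and 0 lower in limma, against 0.298% and 0.568% of all features. In all 4 pairs 12 were higher, against 10.2% of all features. For 10 of the 24 every Flk1+ array lay above every Flk1- array, which held for 2.14% of all features. Their median difference was 0.36. Per array, the median of the group lay between 0.20 and 0.51 in Flk1+ cells and between -0.10 and -0.042 in Flk1- cells. The 5 called genes were the transcription factors Tbx3, Prdm6 and Hand1, the chemokine receptor Ackr3 and the growth factor Fgf10.

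Tbx3, a T-box repressor of heart and limb mesoderm, was at 2.56, 2.86, 2.21 and 2.57 on the Flk1+ arrays and 0.48, 0.76, 0.38 and 0.62 on the Flk1- arrays. Both sorts were above the pup reference, and the lowest Flk1+ array exceeded the highest Flk1- array; the difference was 1.99 ± 0.088, 3.98-fold (adjusted p = 0.00674). Prdm6, a PR-domain repressor known in smooth muscle precursors, was at 2.82, 2.20, 2.81 and 2.54 on the Flk1+ arrays and 1.44, 0.79, 1.48 and 0.81 on the Flk1- arrays. Flk1- arrays 1 and 3 lay above Flk1- arrays 2 and 4, all 4 below the Flk1+ arrays, and the difference was 1.46 ± 0.10 (adjusted p = 0.015). Hand1, a basic helix-loop-helix factor of the lateral and extraembryonic mesoderm, was at 2.05, 1.86, 2.39 and 2.11 on the Flk1+ arrays and 0.25, 0.82, 1.15 and 1.13 on the Flk1- arrays. Array 1 was the lowest of the Flk1- arrays and the groups did not overlap; the difference of 1.27 ± 0.16 had an adjusted p of 0.0471, and the call was lost when the probe with the largest SD stood for the gene. Ackr3, a scavenging receptor for the chemokine Cxcl12, was at 0.29, 0.012, 0.86 and -0.24 on the Flk1+ arrays and -2.02, -1.49, -1.14 and -1.39 on the Flk1- arrays. It was the most variable of the 5 among the Flk1+ arrays, and still no array crossed over, with a difference of 1.74 ± 0.21, 3.34-fold (adjusted p = 0.0431). Fgf10, a growth factor of the limb field and the second heart field, was at 2.06, 1.99, 2.02 and 2.07 on the Flk1+ arrays and 0.55, 0.99, 1.20 and 0.89 on the Flk1- arrays. The Flk1+ arrays lay close together and all exceeded the Flk1- arrays, for a difference of 1.13 ± 0.13 (adjusted p = 0.043).

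Other genes of the group had positive differences that did not pass the test. Gata3, a zinc finger factor, was at 0.73, -0.03, 0.40 and 0.45 on the Flk1+ arrays and -1.47, -0.94, -0.84 and -0.78 on the Flk1- arrays, so the arrays did not overlap, and its difference was 1.40 ± 0.22 (adjusted p = 0.0794). The homeobox genes Msx1 and Msx2, targets of BMP signalling, differed by 0.68 ± 0.11 (adjusted p = 0.0933) and 0.71 ± 0.12 (adjusted p = 0.0888). Hand2, the paralog of Hand1, differed by 0.86 (adjusted p = 0.345). The values nearest to 0 or below it belonged to Prrx1 (0.0020), the heart factor Nkx2-5 (-0.027), Tbx4 (-0.18), Meis1 (-0.085), Meis2 (-0.18), Irx3 (-0.28) and the matrix gene Postn (-0.29). Gata4 and Gata6, which endoderm expresses too, differed by 0.43 and 0.18. For paraxial and intermediate mesoderm 3 genes were measured, Eya1, Pax1 and Myf5, and 0 of them were called in limma, with differences from -0.15 to -0.0052 and 0 at an unadjusted p under 0.05.

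Genes of the primitive streak and of nascent mesoderm were mostly above the pup reference in both sorts. Of 12 measured, 2 were called higher and 0 lower, against 0.298% and 0.568% of all features, with a median difference of 0.20. The median of the group per array was 1.28 to 1.51 in Flk1+ cells and 0.76 to 1.07 in Flk1- cells, so the sorts did not overlap. Hoxb1, a Hox gene switched on early in the streak, was at 1.36, 1.77, 1.18 and 1.20 on the Flk1+ arrays and -0.042, 0.74, 0.13 and 0.35 on the Flk1- arrays. Flk1- array 2 was the highest of its group and stayed below all Flk1+ arrays, and the difference was 1.08 ± 0.11 (adjusted p = 0.0324). Fgf3, a growth factor of the streak, was at 1.54, 1.33, 1.54 and 1.76 on the Flk1+ arrays and 0.54, 0.74, 0.60 and 1.03 on the Flk1- arrays. The highest Flk1- array stayed below the lowest Flk1+ array, with a difference of 0.81 ± 0.10 (adjusted p = 0.0478), a call lost with the probe of largest SD. Mesp1, the earliest marker of cardiac mesoderm, was at 3.72, 3.30, 3.71 and 3.70 on the Flk1+ arrays and 2.73, 3.36, 3.21 and 3.56 on the Flk1- arrays. The groups overlapped, and the difference of 0.39 ± 0.19 did not pass the test (adjusted p = 0.531). Eomes, a T-box factor of the streak, overlapped as well, with a difference of 0.39 ± 0.16 (adjusted p = 0.467). Of 13 measured Hox genes Hoxb1 was the 1 called, and the others lay between -0.15 and 0.27.

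Genes of the epithelial to mesenchymal transition gave 3 calls higher and 0 lower among 18 measured, against 0.298% and 0.568% of all features. Their median was 0.14. In all 4 pairs 8 were higher and 2 lower, against 10.2% and 11.4% of all features. Cdh11, a cadherin of mesenchymal cells, was at -0.36, -0.17, -0.11 and 0.29 on the Flk1+ arrays and -2.30, -1.46, -1.62 and -1.75 on the Flk1- arrays. The ratio was below the pup reference in the Flk1- arrays and near it in the Flk1+ arrays, a difference of 1.70 ± 0.15, 3.24-fold (adjusted p = 0.0222). Fn1, fibronectin, was at 0.13, 0.14, 0.087 and 0.28 on the Flk1+ arrays and -0.45, -0.86, -0.85 and -0.72 on the Flk1- arrays. The Flk1+ arrays were all above 0 and the Flk1- arrays all below, by 0.88 ± 0.11 (adjusted p = 0.0431). Twist1, a helix-loop-helix factor of mesenchyme, was at -0.37, 0.091, 0.16 and 0.23 on the Flk1+ arrays and -1.44, -0.57, -0.53 and -0.54 on the Flk1- arrays. Flk1- array 1 stood below the other Flk1- arrays; the difference was 0.80 ± 0.10 (adjusted p = 0.0478), and 5 of 8 other settings that kept all pairs did not call it. Of the E-cadherin repressors, Snai1 differed by 0.53 ± 0.13 (adjusted p = 0.204), Snai2 by 0.006, Zeb1 by -0.34 and Zeb2 by 0.26, and none of these 4 was called. N-cadherin, Cdh2, overlapped between the sorts, with a difference of 0.55 ± 0.13 (adjusted p = 0.191). Its 2 probes disagreed, with 1.19 (adjusted p = 0.0797 over all probes) and -0.10 (0.721). Vimentin, Vim, differed by 0.10.

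**Figure D2:**
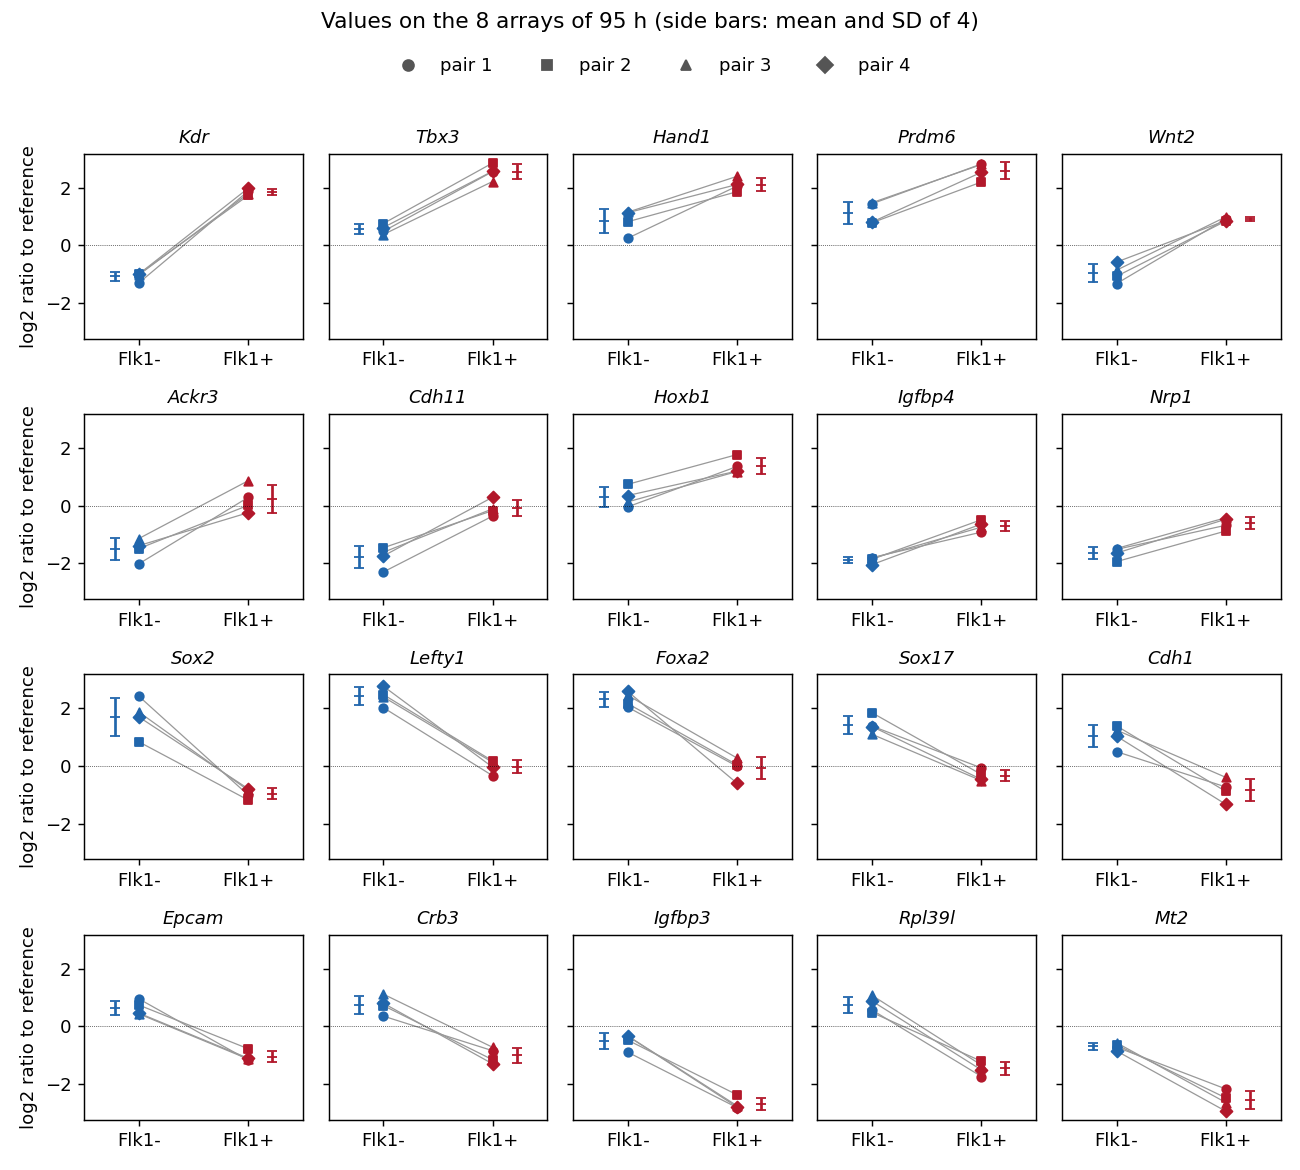
Log2 ratio to the pup reference (vertical axis) on each of the 8 arrays of 95 h for 20 genes, with lines joining the samples of the same number and side bars giving mean and SD of 4. In the upper panels, such as Kdr and Tbx3, each Flk1+ point lies above all Flk1- points, and in the lower panels, such as Sox2 and Cdh1, below them.

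Among signalling pathways, Wnt components gave 2 calls higher and 1 lower of 40 measured, against 0.298% and 0.568% of all features. Their median difference was 0.089. Wnt ligands signal through Frizzled receptors to beta-catenin and the Lef and Tcf factors, and Wls carries the ligands to the cell surface. The ligand Wnt2 was at 0.91, 0.84, 0.99 and 0.86 on the Flk1+ arrays and -1.33, -1.07, -0.86 and -0.58 on the Flk1- arrays. The Flk1+ arrays lay close together, the Flk1- arrays spread more widely, and the groups did not overlap; the difference was 1.86 ± 0.14, 3.64-fold (adjusted p = 0.019). Wls was at 0.023, 0.15, 0.39 and 0.27 on the Flk1+ arrays and -0.62, -0.58, -0.29 and -0.35 on the Flk1- arrays, a difference of 0.67 ± 0.078 (adjusted p = 0.0424) that was not called without the pairing. The corepressor Ctbp2, which acts beyond the Wnt pathway too, was lower, at 0.18, 0.44, 0.50 and 0.47 on the Flk1+ arrays and 0.996, 1.004, 1.32 and 1.27 on the Flk1- arrays, by -0.75 ± 0.089 (adjusted p = 0.0431). All 6 measured Wnt ligands had positive differences, from 0.097 for Wnt4 to that of Wnt2, and for 3 of them the sign held in all 4 pairs. Wnt5a was next, with 0.86 ± 0.14 (adjusted p = 0.0855) and no overlap. The 7 measured receptors lay between -0.72 for Ror1 and 0.40 for Fzd7, the 5 inhibitors between -0.65 for Dkk2 and 0.48 for Frzb, and 0 of these 12 were called. Lef1, which is both a factor and a target of the pathway, was at 1.38, 1.59, 1.43 and 1.65 on the Flk1+ arrays and 0.29, 0.96, 0.81 and 0.44 on the Flk1- arrays, and its difference of 0.89 ± 0.14 missed the call (adjusted p = 0.0729). Beta-catenin itself, Ctnnb1, differed by -0.021 and Axin1 by 0.039.

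In the BMP and TGF-beta pathway, 41 genes were measured, 1 was called higher and 1 lower, against 0.298% and 0.568% of all features. The ligand Tgfb2 was at 0.25, -0.033, 0.47 and 0.23 on the Flk1+ arrays and -0.42, -0.67, -0.21 and -0.28 on the Flk1- arrays, higher by 0.62 ± 0.081 (adjusted p = 0.0486), and it was not called without the pairing. Fst, follistatin, which binds and blocks activins, was at 0.75, 0.53, 0.55 and 0.64 on the Flk1+ arrays and 2.001, 1.83, 2.03 and 1.998 on the Flk1- arrays. All Flk1- arrays lay well above all Flk1+ arrays, a difference of -1.35 ± 0.084, 2.55-fold lower (adjusted p = 0.0139). Bmp4, the ligand that induces Flk1+ mesoderm in embryoid bodies, was at 0.70, 0.20, 0.27 and 0.16 on the Flk1+ arrays and -0.80, -0.48, -0.23 and -0.24 on the Flk1- arrays, without overlap but with an adjusted p of 0.248 for a difference of 0.77 ± 0.20. Bmp5 differed by 0.79 ± 0.11 (adjusted p = 0.0562) and the transducer Smad1 by 1.04 ± 0.19 (adjusted p = 0.106). The BMP targets Id1, Id2 and Id3 differed by 0.13, -0.66 and 0.064. The median of the 41 was 0.14. Of 20 FGF genes, the ligands Fgf10 and Fgf3 described above were called higher and 0 lower, against 0.298% and 0.568% of all features. The 5 receptors lay between -0.041 for Fgfr4 and 0.46 for Fgfrl1, and the 6 feedback inhibitors and targets between -0.35 for Spry1 and 0.42 for Spred1.

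Endothelial genes had no common direction at 95 h. Of 25 measured, 2 were called higher and 2 lower, against 0.298% and 0.568% of all features. The median difference was -0.0064, near that of all features. Nrp1, a coreceptor for vascular endothelial growth factor and semaphorins, was at -0.68, -0.88, -0.42 and -0.47 on the Flk1+ arrays and -1.52, -1.94, -1.49 and -1.65 on the Flk1- arrays, higher by 1.04 ± 0.092 (adjusted p = 0.0222). Its 3 probes differed by 1.46, 1.08 and 0.58, and the last was not called (limma over all probes, adjusted p = 0.198). Fgd5, an exchange factor for Cdc42 known in endothelium and blood stem cells, was at 0.49, 0.021, 0.75 and 0.52 on the Flk1+ arrays and -0.35, -0.52, -0.25 and -0.31 on the Flk1- arrays, higher by 0.80 ± 0.10 (adjusted p = 0.0478), and 3 other settings, the fit without pairing among them, did not call it. The other 2 called genes went the other way. Flt1, the second receptor for vascular endothelial growth factor, was at -0.36, -0.013, -0.28 and -0.50 on the Flk1+ arrays and 0.24, 0.74, 0.27 and 0.23 on the Flk1- arrays, and Flk1- array 2 stood above the rest; the difference was -0.66 ± 0.085 (adjusted p = 0.0478), not called without the pairing. Klf2, a zinc finger factor of endothelium that embryonic stem cells also express, was at -1.53, -2.06, -2.10 and -2.12 on the Flk1+ arrays and -0.00065, -0.33, -0.14 and -0.47 on the Flk1- arrays. The lowest Flk1- array lay well above the highest Flk1+ array, with a difference of -1.71 ± 0.10, 3.28-fold lower (adjusted p = 0.0115).

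The genes that define mature endothelium were not called. Cdh5, VE-cadherin, was at -3.23, -3.19, -2.96 and -3.02 on the Flk1+ arrays and -2.68, -3.17, -3.26 and -2.77 on the Flk1- arrays, far below the pup reference in both sorts and overlapping, with a difference of -0.13 ± 0.15 (adjusted p = 0.801). Pecam1, which stem cells express as well, was at -0.52, -0.48, -0.12 and -0.15 on the Flk1+ arrays and -0.13, -0.082, -0.22 and -0.16 on the Flk1- arrays and differed by -0.17 ± 0.12 (adjusted p = 0.684). Cd34 differed by -0.035, Emcn by -0.14 and Sox18 by -0.017. Aplnr, the apelin receptor, which early mesoderm and endothelium share, was at 0.45, 0.16, 0.52 and 0.54 on the Flk1+ arrays and 0.071, -0.65, -0.18 and -0.26 on the Flk1- arrays; the arrays did not overlap, and the difference of 0.68 ± 0.11 had an adjusted p of 0.0794. Of 18 genes of the VEGF, PDGF and angiopoietin systems, Nrp1 was called higher and Flt1 lower, against 0.298% and 0.568% of all features. Both are counted among the endothelial genes too, and the ligand Vegfa differed by -0.23. Of 18 Notch genes 0 were called in limma. Notch1 differed by 0.43 ± 0.12 (adjusted p = 0.273) and the target Hes1 by 0.62 ± 0.13 (adjusted p = 0.146), and 7 of the 18 had an unadjusted p under 0.05, against 11.2% of all features. Of 6 measured regulators and surface genes of the hemangioblast, the common precursor of blood and endothelium, 0 were called and 3 had an unadjusted p under 0.05. The stem cell factor receptor Kit was at -1.06, -1.04, -0.65 and -1.25 on the Flk1+ arrays and 1.06, 0.37, 0.25 and 0.16 on the Flk1- arrays. No Flk1+ array reached the Flk1- range, and the difference of -1.46 ± 0.20 just missed the threshold (adjusted p = 0.0542), while 5 of 8 other settings called it. Cd9, a tetraspanin, differed by -1.12 (adjusted p = 0.297), Gata1 by -0.056 and Myb by -0.18.

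Pluripotency and epiblast genes were on the Flk1- side. Of 32 measured, 7 were called lower in Flk1+ cells and 0 higher, against 0.568% and 0.298% of all features. Their median was -0.42, and 19 were lower in all 4 pairs against 11.4% of all features. The median of the group per array was 0.40 to 0.62 in Flk1+ cells and 1.14 to 1.54 in Flk1- cells. Sox2, a core factor of pluripotency that neural and endoderm precursors also use, was at -1.01, -1.18, -0.84 and -0.79 on the Flk1+ arrays and 2.42, 0.84, 1.87 and 1.70 on the Flk1- arrays. Flk1- array 2 was the lowest of its group and still above every Flk1+ array; the difference of -2.66 ± 0.23, 6.34-fold lower, was the most negative of all features (adjusted p = 0.0208). Dppa3, also called Stella, a germ cell and pluripotency gene, was at 0.20, -0.76, 0.89 and 0.19 on the Flk1+ arrays and 1.62, 1.36, 1.98 and 2.13 on the Flk1- arrays, lower by 3.12-fold (adjusted p = 0.043), and the call was lost without the pairing. Utf1, a chromatin-bound factor of stem cells, was at 0.37, -0.071, 0.31 and 0.12 on the Flk1+ arrays and 1.67, 0.93, 1.27 and 1.30 on the Flk1- arrays, a difference of -1.11 ± 0.096 (adjusted p = 0.0208). Zfp42, or Rex1, remained well above the pup reference in both sorts, at 2.12, 2.15, 1.96 and 2.20 on the Flk1+ arrays and 2.69, 3.01, 2.86 and 3.13 on the Flk1- arrays. Its difference of -0.81 ± 0.097 was called (adjusted p = 0.0431), but not after quantile normalization or in either fit over 24 arrays.

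The other called members of this group were the kinase Pim2, with -1.16 ± 0.11 (adjusted p = 0.0231), Jarid2, a partner of the Polycomb complex PRC2, with -1.05 ± 0.12 (adjusted p = 0.0431), and Lefty1. Nanog was at 0.85, 0.33, 0.61 and 0.70 on the Flk1+ arrays and 1.17, 0.82, 1.31 and 1.29 on the Flk1- arrays. It overlapped between the sorts and did not pass the test, with -0.52 ± 0.097 (adjusted p = 0.113). Klf5 differed by -0.72, Esrrb by -0.38, the de novo DNA methyltransferase Dnmt3b by -0.085 and its cofactor Dnmt3l by -0.50, all uncalled. Sall4 and Mycn had small positive differences of 0.22 and 0.23. Of 8 measured germ cell genes, Dppa3, already counted above, was the 1 called lower and 0 were called higher, against 0.568% and 0.298% of all features. The other 7 lay between -0.60 for Ifitm3 and -0.14 for Dazl. In all 4 pairs 3 of the 8 were lower, against 11.4% of all features.

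The Nodal pathway patterns the streak, and its feedback inhibitors are the 2 Lefty genes. Lefty1 was at -0.34, 0.18, 0.13 and -0.042 on the Flk1+ arrays and 2.03, 2.48, 2.40 and 2.77 on the Flk1- arrays. The Flk1+ arrays scattered around the pup reference and the Flk1- arrays lay far above it, a difference of -2.44 ± 0.12, 5.42-fold lower (adjusted p = 0.00765). Its neighbour in the family, Lefty2, was at 3.06, 2.51, 3.46 and 2.75 on the Flk1+ arrays and 2.86, 2.07, 2.43 and 2.46 on the Flk1- arrays. Lefty2 overlapped between the sorts and its difference had the opposite sign, 0.49 ± 0.16, without passing the test (adjusted p = 0.351). Of 11 Nodal pathway genes measured, Lefty1 and Foxa2 were called lower and 0 higher, against 0.568% and 0.298% of all features. The coreceptor Tdgf1 differed by -0.10 and the related ligand Gdf3 by -0.81 (adjusted p = 0.281).

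Endoderm genes were lower in Flk1+ cells or not called. Of 22 measured, 3 were called lower and 0 higher, against 0.568% and 0.298% of all features, with a median of -0.18. In all 4 pairs 6 were lower and 3 higher, against 11.4% and 10.2% of all features. Foxa2, a forkhead factor of definitive endoderm, node and visceral endoderm, was at -0.0091, 0.041, 0.28 and -0.60 on the Flk1+ arrays and 2.04, 2.17, 2.45 and 2.59 on the Flk1- arrays. Every Flk1- array was well above the pup reference and the Flk1+ arrays scattered around it, a difference of -2.39 ± 0.21, 5.22-fold lower (adjusted p = 0.0222). Sox17, a factor of endoderm and later of arterial endothelium, was at -0.067, -0.29, -0.51 and -0.47 on the Flk1+ arrays and 1.38, 1.85, 1.10 and 1.37 on the Flk1- arrays, a difference of -1.76 ± 0.13 (adjusted p = 0.019). Trh, the precursor of thyrotropin-releasing hormone, was at 0.53, 1.10, 1.16 and 0.56 on the Flk1+ arrays and 3.08, 2.77, 2.86 and 2.88 on the Flk1- arrays. It exceeded the pup reference in both sorts and was 4.16-fold lower in Flk1+ cells (adjusted p = 0.0218). Secreted products of mature visceral endoderm stayed near 0, with 0.023 for Ttr, 0.031 for Apoa1, -0.034 for Apoa4 and -0.16 for Alb, while the endocytic receptor Cubn differed by -1.15 (adjusted p = 0.214). The median of the 22 per array lay between -0.58 and -0.28 in Flk1+ cells and between -0.41 and 0.25 in Flk1- cells, so these ranges overlapped.

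Genes of epithelial junctions and polarity gave more calls than any other list. Of 32 measured, 10 were called lower and 0 higher, against 0.568% and 0.298% of all features. In all 4 pairs 22 were lower, against 11.4% of all features. For 16 the arrays did not overlap in that direction, against 2.67% of all features. Their median difference was -0.56, and the median per array was -0.39 to -0.10 in Flk1+ cells and 0.25 to 0.47 in Flk1- cells. Cdh1, E-cadherin, the adhesion molecule of epithelia and of stem cell colonies, was at -0.73, -0.88, -0.40 and -1.33 on the Flk1+ arrays and 0.50, 1.39, 1.25 and 1.03 on the Flk1- arrays. The Flk1- arrays were all above the pup reference and the Flk1+ arrays all below, by -1.88 ± 0.21, 3.68-fold (adjusted p = 0.0406). Epcam, an epithelial adhesion molecule, was at -1.17, -0.78, -1.14 and -1.11 on the Flk1+ arrays and 0.95, 0.74, 0.43 and 0.46 on the Flk1- arrays, a difference of -1.69 ± 0.13 (adjusted p = 0.019). Crb3, which sets the apical pole, was at -0.85, -1.16, -0.73 and -1.30 on the Flk1+ arrays and 0.35, 0.72, 1.12 and 0.80 on the Flk1- arrays, a difference of -1.76 ± 0.16 (adjusted p = 0.0231).

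The tight junction genes Cldn4, Cldn3 and Ocln were called too. Cldn4 was at -0.37, 0.26, 0.39 and -0.48 on the Flk1+ arrays and 0.98, 1.60, 1.41 and 1.56 on the Flk1- arrays, lower by 2.71-fold (adjusted p = 0.0451). Cldn3 was at -1.81, -2.10, -1.85 and -2.33 on the Flk1+ arrays and -0.63, -0.67, -0.15 and -1.06 on the Flk1- arrays, lower by 2.63-fold (adjusted p = 0.0196). Ocln, occludin, was lower by 1.82-fold (adjusted p = 0.0442), a call lost after quantile normalization and in a trended, robust fit. Their relative Cldn6 was at 0.31, 0.82, 0.25 and 0.13 on the Flk1+ arrays and 2.18, 1.74, 1.41 and 1.28 on the Flk1- arrays, without overlap, and fell just outside the call with -1.27 ± 0.17 (adjusted p = 0.0518), while 6 of 8 other settings called it. The remaining called genes were regulators, a protease and a keratin. Ovol2, a repressor of mesenchymal factors, differed by -1.47 ± 0.11 (adjusted p = 0.019). The membrane protease St14, or matriptase, differed by -1.46 ± 0.084 (adjusted p = 0.0115), and its inhibitor Spint2, which was not called, by -1.20 ± 0.16 (adjusted p = 0.0518). The ETS factor Elf3 differed by -0.82 ± 0.081 (adjusted p = 0.0267) and the keratin Krt19 by -0.74 ± 0.092 (adjusted p = 0.0467), with 1 Flk1+ array of Krt19 inside the Flk1- range and its call lost in 3 of 8 other settings, the fit without pairing among them. Junction proteins that most cell types use were not called, with -0.15 for Tjp1, -0.011 for alpha-catenin Ctnna1, 0.13 for Ctnnd1 and 0.16 for plakoglobin Jup. Keratins Krt8 and Krt18 differed by -0.055 and -0.31.

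Promoters of 4 of the called junction genes are printed as examples that hold a motif. They were chosen for holding it, so their sharing it is no result. Being lower in all 4 pairs holds for every gene called lower. Epcam was planned for this search, and Crb3, Cldn4 and Cldn3 were added. The motif is CAGGTG, a 6-base E-box known to bind the Snail and Zeb repressors, searched on both strands; each match is also a match to the general E-box CANNTG. Capitals mark CAGGTG or its reverse complement CACCTG, sequences run 5′ to 3′ on the strand of the gene from 250 bases before its start to 50 after, and they are those of RefSeq on GRCm38.p6.
Epcam, chr17:87635729-87636028, plus strand: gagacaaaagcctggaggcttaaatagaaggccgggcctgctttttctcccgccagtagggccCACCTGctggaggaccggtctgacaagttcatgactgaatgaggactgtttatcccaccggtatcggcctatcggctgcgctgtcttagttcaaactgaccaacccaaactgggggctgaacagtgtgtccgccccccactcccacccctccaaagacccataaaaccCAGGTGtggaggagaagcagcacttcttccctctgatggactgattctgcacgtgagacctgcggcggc
Crb3, chr17:57061951-57062250, plus strand: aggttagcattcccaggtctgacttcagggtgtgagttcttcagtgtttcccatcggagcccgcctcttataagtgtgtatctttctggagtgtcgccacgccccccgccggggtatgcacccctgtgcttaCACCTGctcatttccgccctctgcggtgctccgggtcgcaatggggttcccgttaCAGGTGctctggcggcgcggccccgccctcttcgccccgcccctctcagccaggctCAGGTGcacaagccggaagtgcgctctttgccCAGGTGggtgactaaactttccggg
Cldn4, chr5:134946885-134947184, minus strand: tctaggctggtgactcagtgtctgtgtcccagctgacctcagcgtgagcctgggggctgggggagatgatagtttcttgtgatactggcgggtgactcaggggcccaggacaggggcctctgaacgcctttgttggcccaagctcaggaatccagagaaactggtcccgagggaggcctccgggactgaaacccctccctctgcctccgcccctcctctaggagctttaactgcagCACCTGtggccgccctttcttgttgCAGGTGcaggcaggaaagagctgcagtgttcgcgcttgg
Cldn3, chr5:134985964-134986263, plus strand: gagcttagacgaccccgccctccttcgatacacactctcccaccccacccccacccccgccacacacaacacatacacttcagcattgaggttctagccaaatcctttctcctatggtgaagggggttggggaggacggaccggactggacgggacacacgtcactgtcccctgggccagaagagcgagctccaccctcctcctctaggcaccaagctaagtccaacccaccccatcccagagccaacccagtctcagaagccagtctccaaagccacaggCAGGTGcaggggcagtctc

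Epcam held 2 matches, at -187 and -19 counted from 0 at the gene start, Crb3 held 4, Cldn4 held 2, at -14 and 11, and Cldn3 held 1, at 31. Over all 32851 promoters of the table, 20.2% held CAGGTG, 72.3% held CANNTG and 19.6% held ACGTG, the core of the element bound by hypoxia-inducible factors. Counted per gene, 1536 of 7250 measured genes with an entry held CAGGTG in at least 1 promoter, or 21.2%. Of the called epithelial genes 7 had an entry and 6 of these held it (Epcam, Cldn3, Cldn4, Ocln, Crb3 and Elf3), and Ovol2 did not. Cdh1, St14 and Krt19 had no entry, so their promoters were not searched. Of the uncalled epithelial genes 9 of 15 held it. Of all genes called lower with an entry 27 of 61 held it, or 44.3%, and of all genes called higher 3 of 33, or 9.09%. A match is a stretch of letters and not a measured binding site, and these shares were not tested.

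Several metabolic and growth genes were lower in Flk1+ cells. Of 27 genes of hypoxia and glycolysis 1 was called lower, against 0.568% of all features, and 15 were lower in all 4 pairs, against 11.4% of all features, with a median of -0.19. The called gene was Pdk1, a kinase that holds pyruvate out of the mitochondrial cycle, at -0.28, -0.59, -0.069 and -0.92 on the Flk1+ arrays and 1.13, 0.48, 1.21 and 0.68 on the Flk1- arrays, lower by 2.53-fold (adjusted p = 0.0208). Ddit4, an inhibitor of the kinase mTOR, was at 0.094, -0.071, 0.18 and -1.08 on the Flk1+ arrays and 0.76, 0.94, 0.88 and 0.91 on the Flk1- arrays, with Flk1+ array 4 well below the other Flk1+ arrays, and did not pass the test (adjusted p = 0.174). Neither of the 2 Pdk1 promoters searched held ACGTG, and the Kdr promoter held neither ACGTG nor CAGGTG. The promoters of Epcam and Cldn3 printed above held ACGTG, as did a Crb3 promoter that is not printed, while that of Cldn4 did not. The classical targets Vegfa, Slc2a1 and Pgk1 differed by -0.23, -0.14 and -0.24.

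Binding proteins of the insulin-like growth factors went both ways. Igfbp3 was at -2.82, -2.38, -2.76 and -2.80 on the Flk1+ arrays and -0.90, -0.48, -0.33 and -0.34 on the Flk1- arrays, lower by 4.52-fold (adjusted p = 0.0139), and Igfbp2 was lower by 2.08-fold (adjusted p = 0.032). Igfbp4 was at -0.92, -0.49, -0.74 and -0.64 on the Flk1+ arrays and -1.80, -1.86, -1.83 and -2.04 on the Flk1- arrays, higher by 2.28-fold (adjusted p = 0.027). All 3 lay below the pup reference in the Flk1+ arrays. The growth factor gene Igf2 differed by 0.44 and its receptor relatives Igf1r and Insr by -0.057 and -0.11. Of the 10 measured genes of this axis 1 was called higher and 2 lower, against 0.298% and 0.568% of all features, and 7 were uncalled. The metallothioneins, which bind zinc and copper, were Mt2, at -2.17, -2.48, -2.64 and -2.95 on the Flk1+ arrays and -0.72, -0.64, -0.57 and -0.85 on the Flk1- arrays, lower by 3.64-fold (adjusted p = 0.0167), and Mt1, with -1.04 ± 0.15 (adjusted p = 0.0563).

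The larger gene families below had medians close to 0 and few called members. Over all features 0.298% were called higher and 0.568% lower. Single members ranged widely, from -1.39 to 0.85 among chromatin genes and from -1.30 to 1.02 among solute carriers. Of 48 genes of cytosolic ribosomal proteins 1 was called, Rpl39l, a paralog of Rpl39 that stem cells and testis express, at -1.74, -1.21, -1.35 and -1.51 on the Flk1+ arrays and 0.56, 0.48, 1.07 and 0.87 on the Flk1- arrays. It was 4.6-fold lower in Flk1+ cells (adjusted p = 0.015), while Rpl39 differed by -0.16 and the median of the 48 was -0.061. Of the 48, 12 were lower in all 4 pairs and 2 higher, against 11.4% and 10.2% of all features. Cross-hybridisation between the paralogs was not tested. Of 41 proteasome genes 1 was called, the immunoproteasome subunit Psmb8, with -1.09 ± 0.13 (adjusted p = 0.044), and its partner Psmb10 had -0.78 ± 0.11 (adjusted p = 0.0523). Of 66 genes of the respiratory chain and ATP synthase 0 were called in limma, 1 had an unadjusted p under 0.05, and the differences ran from -0.41 to 0.32. Of 42 cell cycle genes 1 was called, cyclin D2 (Ccnd2), at 0.0061, -0.51, -0.20 and -0.21 on the Flk1+ arrays and -0.57, -1.35, -1.10 and -1.20 on the Flk1- arrays, higher by 1.77-fold (adjusted p = 0.0442), and 3 other settings did not call it. The median of the cell cycle genes was 0.030. Of 27 chromatin genes 2 were called lower, Jarid2 and the Polycomb protein Cbx7, at 0.84, 0.45, 1.15 and 0.73 on the Flk1+ arrays and 2.42, 1.62, 2.41 and 2.28 on the Flk1- arrays, with 2.62-fold (adjusted p = 0.019). Of 160 solute carriers, Slc38a4 and Slc6a6 were called higher and Slc45a3 and Slc7a7 lower. Slc7a7 was not called in 4 of 8 other settings, Slc6a6 in 2, and Slc45a3 without the pairing. Of 151 zinc finger genes Zfp219 and Zfp42 were called lower and 0 higher.

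Markers of other tissues gave few calls, and their part in the results above was not tested. Over all features 0.298% were called higher and 0.568% lower. Of 20 genes of contractile heart muscle 1 was called, the atrial myosin light chain Myl7, at 0.37, 0.60, 0.93 and 0.47 on the Flk1+ arrays and -1.19, -0.83, -0.54 and -0.84 on the Flk1- arrays. It was 2.72-fold higher in Flk1+ cells (adjusted p = 0.0115), whereas Tnnt2, Actc1 and Myh7 differed by 0.041, 0.063 and -0.0028, and the median per array of the 20 lay between -1.87 and -1.40 over both sorts. Of 17 smooth muscle and fibroblast genes the matrix protein Fbln2 was called, higher by 1.98-fold (adjusted p = 0.0196); Acta2 differed by -0.20 and Ccn2 by -1.69 (adjusted p = 0.163). Of 10 erythroid, 8 leukocyte and platelet and 9 neural genes 0 were called in limma. An unadjusted p under 0.05 held for 1, 1 and 2 of them, against 11.2% of all features. Among the measured genes the embryonic globins Hba-x and Hbb-y differed by -0.38 and -0.043 and the leukocyte antigen Ptprc by -0.55. Of 10 trophoblast genes the homeobox gene Rhox6 was called lower, with -1.06 ± 0.085 (adjusted p = 0.0196). Of 43 basement membrane and matrix genes Fn1 was the 1 called; Lama5, Col18a1 and Col4a1 differed by -1.02, -1.03 and -0.89 and the integrin Itga6 by 0.99, all uncalled. Immediate early and heat shock genes, which respond to handling, gave 0 calls of 21 in limma with a median of 0.015. An unadjusted p under 0.05 held for 8 of the 21, against 11.2% of all features. Of these 21, 4 did not overlap in the lower direction (against 2.67% of all features) and 2 in the higher one (against 2.14%). Their lowest differences were -1.14 for the heat shock protein Hspb1 and -1.12 for the immediate early gene Ier3, both with an adjusted p of 0.0542 in limma, and the part of such genes in the results above was not tested. Axon guidance genes gave 0 calls of 34 with 10 at an unadjusted p under 0.05, against 11.2% of all features. Retinoid genes gave 0 of 8 with 1. Genes of the replication origin gave 0 of 15 with 0 and ADAM proteases 0 of 23 with 2. Of 6 protocadherins Pcdh18 was called higher, by 2.12-fold (adjusted p = 0.0231), and Ackr3 was the 1 called of 3 chemokine genes.

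**Figure D3:**
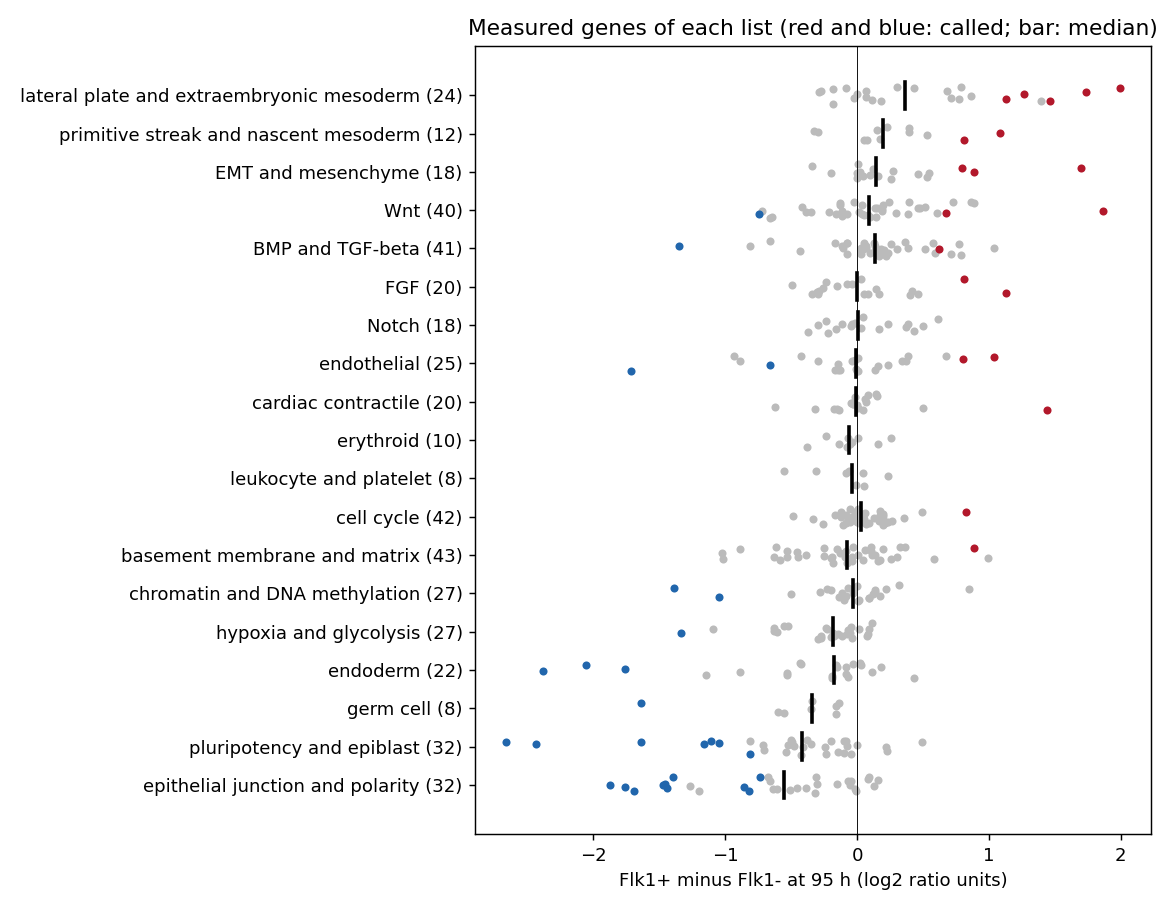
Difference between Flk1+ and Flk1- cells at 95 h (horizontal axis, log2 ratio units) of each measured gene in 19 groups, with the number measured in brackets, called genes in red or blue and a bar at the median. The medians run from -0.56 for epithelial genes to 0.36 for lateral plate genes, and called points of both groups lie on 1 side of 0.

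Of the called genes with a symbol, 60 belonged to no list, Kdr among them. The highest after Kdr was Klhl6, an adaptor of a ubiquitin ligase known from B cells, at 1.35, 1.81, 1.81 and 1.68 on the Flk1+ arrays and -0.99, -0.32, -0.27 and -0.25 on the Flk1- arrays. Flk1- array 1 was the lowest, the groups were far apart, and the difference was 2.12 ± 0.098, 4.35-fold (adjusted p = 0.00674). The membrane protein Pmp22 was at 0.082, -0.59, 0.50 and 0.0045 on the Flk1+ arrays and -1.41, -2.03, -1.38 and -1.48 on the Flk1- arrays, higher by 2.98-fold (adjusted p = 0.015). Other genes higher in Flk1+ cells were Lhfp by 2.57-fold, the cyclophilin Ppic by 2.49-fold, the proprotein convertase Pcsk5 by 2.45-fold, the lysosomal membrane protein Laptm4b by 2.27-fold, Vstm2b by 2.27-fold and the tumour necrosis factor receptor Tnfrsf1a by 2.21-fold, with adjusted p between 0.019 and 0.0451. On the lower side, Tpd52, a protein of vesicle traffic, was at -1.37, -1.55, -1.19 and -1.66 on the Flk1+ arrays and 1.28, 0.67, 0.99 and 0.67 on the Flk1- arrays. No Flk1+ array came near the Flk1- range, and the gene was 5.07-fold lower (adjusted p = 0.00674). Irs4, an insulin receptor substrate, was 2.85-fold lower (adjusted p = 0.0253) and Mageb16 was 2.68-fold lower (adjusted p = 0.027).

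The same sort at the other times was read from 1 fit over all 24 arrays, in which pairs at 95 h and the other times share the estimate of the spread but no sample. Of the 151 features called at 95 h, 148 had the same sign at 84 h, or 98.0% against 55.3% of all features, and 126 had it in all 4 pairs, or 83.4% against 24.7%. At 84 h 4386 features were called (25.1%), and 133 of the 151 were among them with the same sign, which is 88.1% of the calls at 95 h and 3.03% of those at 84 h. Arrays 2 and 4 of Flk1+ cells at 84 h stood apart, with correlations of 0.590 to 0.689 to arrays 1 and 3 against 0.930 between those; without numbers 2 and 4 of that time 1449 features were called there, and 136 of the 151 were among them with the same sign. At 8 d, 98 of the 151 kept the sign, or 64.9% against 47.8% of all features, and 24 were called with the same sign, which is 15.9% of the calls at 95 h and 17.3% of the 139 calls at 8 d (0.797%). Without numbers 2 and 4 of 84 h the shared spread gave 415 calls at 8 d, and 36 of the 151 were among them with the same sign, which is 23.8% of the calls at 95 h and 8.67% of those at 8 d. The 4 called with the opposite sign at 8 d were Tbx3, Ccnd2, Klf2 and Adgrg1.

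The change of the sort difference between times was tested in the same fit. Between 84 h and 95 h it was called for 5 features (0.0287%). The 1 with a symbol was Dusp9, a phosphatase that switches off ERK, with a difference between the sorts of 1.21 at 84 h and -0.031 at 95 h, a change of -1.24 (adjusted p = 0.0171). That call was lost after quantile normalization, without the pairing and when any 1 pair of 95 h was left out. Kdr differed by 1.91 at 84 h, 2.93 at 95 h and 1.89 at 8 d, and neither change was called, with adjusted p of 0.135 and 0.197. Prdm6 differed by 3.28 at 84 h, Snai1 by 1.56, Mesp1 by 1.49 and Wnt2 by 2.66, all more positive there than at 95 h. None of these changes was called, with adjusted p of 0.0684, 0.0851, 0.142 and 0.101. Other uncalled changes went the opposite way, by 1.11 for Ppic, 1.04 for Laptm4b and 1.01 for Myl7 (limma, adjusted p = 0.153, 0.160 and 0.122). Numbers 2 and 4 of 84 h, where the Flk1+ arrays stood apart, are part of all these values.

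Between 95 h and 8 d the change was called for 173 features (0.992%), 53 of them more positive at 95 h (0.304%) and 120 more negative (0.688%); after quantile normalization the split was 150 against 184. Leaving out 1 pair of 95 h gave 28 to 60 calls and dropping the pairing 93, whereas array weights gave 1578 and leaving out numbers 2 and 4 of 84 h gave 668. Tbx3 went from 1.99 at 95 h to -0.59 at 8 d, a change of 2.58 (adjusted p = 2.34e-07), and Myl7 from 1.44 to -0.71 (adjusted p = 0.00421). Ackr3 went from 1.74 to -0.067 (adjusted p = 0.0036). Ttr, transthyretin of the visceral endoderm, differed by 0.023 at 95 h and -1.999 at 8 d (adjusted p of the change = 0.00012). In the other direction, Klf2 went from -1.71 at 95 h to 0.82 at 8 d (adjusted p = 6.63e-05) and the adhesion receptor Adgrg1 from -1.17 to 1.07 (adjusted p = 0.00107). Igfbp3 and Lefty1, far apart at 95 h, differed by 0.21 and -0.078 at 8 d (adjusted p of the change = 0.000124 and 6.63e-05). For VE-cadherin, the difference between the sorts was -0.13 at 95 h and 1.84 at 8 d (adjusted p of the change = 0.00107). Of the 10 junction genes called at 95 h, 6 were called lower at all 3 times in this fit (Epcam, Crb3, Ovol2, St14, Cldn4 and Ocln), with differences such as those of Epcam (-2.17, -1.69 and -1.14), Crb3 (-1.49, -1.76 and -0.86) and Ovol2 (-1.57, -1.47 and -0.79 at 84 h, 95 h and 8 d).

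**Figure D4:**
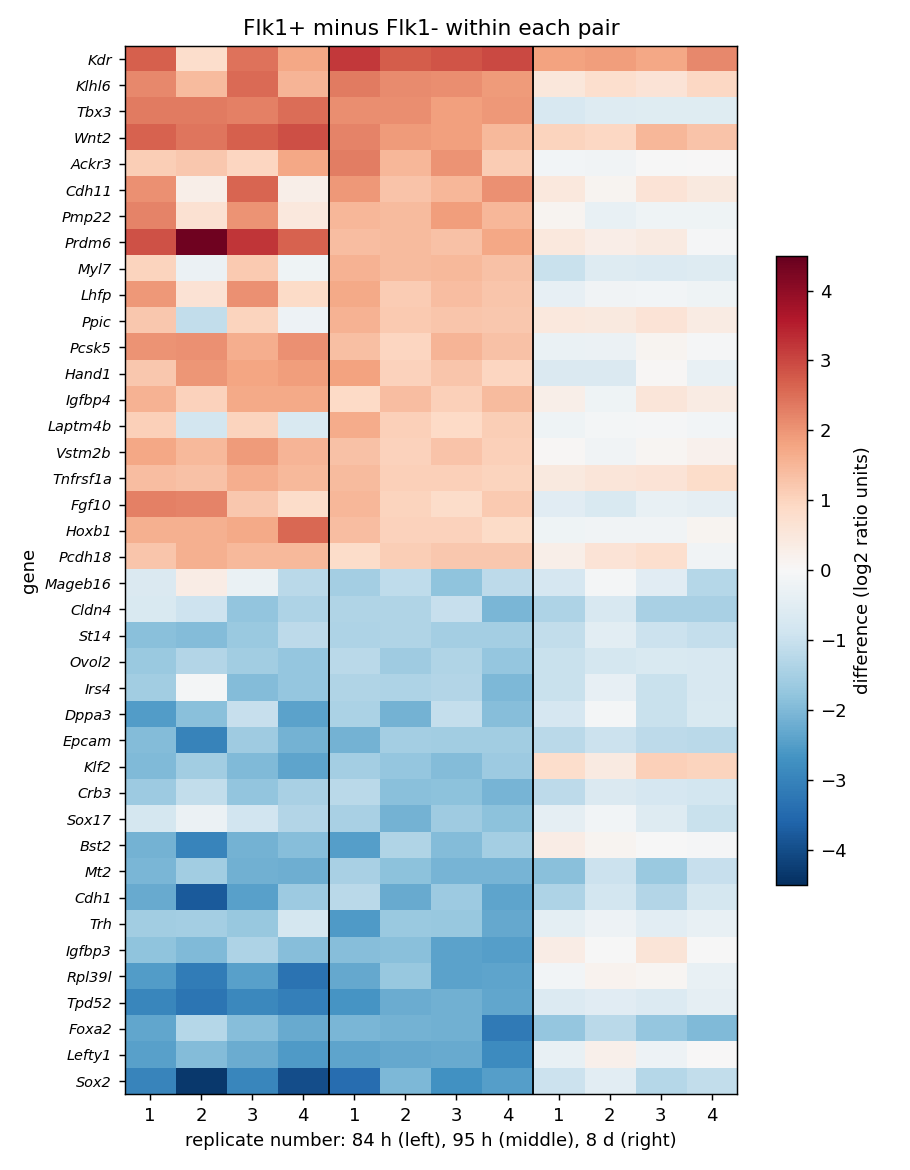
Flk1+ minus Flk1- difference (colour, log2 ratio units) within each of the 4 pairs at 84 h (left), 95 h (middle) and 8 d (right) for the 20 genes with the largest positive and the 20 with the largest negative called differences at 95 h. Rows are uniformly red or blue at 95 h by the choice of genes; Tbx3 and Klf2 change colour at 8 d, and Prdm6 is darkest at 84 h.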

How the data were processed

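RNA of Flk1+ and Flk1- cells was measured on two-colour Agilent mouse development arrays, sample in Cy5 and pup reference in Cy3, per the labels' protocols. The deposited values are 1 log ratio per probe and array, read here as log2 of Cy5 over Cy3; the mean of every array was 0 and the 8 arrays of 95 h held values from -5.38 to 4.24. The log base, direction, feature extraction, background correction and normalization are not given in the sources used here. Another log base would multiply every difference by 1 factor and leave signs and p-values as they are. The opposite direction would turn every sign, that of the sort gene Kdr included, which is higher in Flk1+ cells in all 4 pairs as read here. No intensities were used, so a dim or saturated spot cannot be told from a good one, and the number of arrays limits the precision.

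Of 20280 probes, 11813 had 1 gene, 559 several and 7908 none listed; the last 2 kinds stayed unnamed. The RefSeq gene table held the Entrez identifiers of 11782 probes and changed 0 symbols. Array medians were set to 0 and probes of a gene averaged (2180 genes), which left 8973 named genes and 8467 unnamed probes. Of the called genes 16 had more than 1 probe, and for 0 of these did the probes differ in sign. The 8 arrays were fitted with lmFit and eBayes of limma 3.58.1 in R 4.3.3, with sort and replicate number as terms (3 residual and 2.42 prior degrees of freedom). The number pairs the samples: the correlations of the deviations of same-numbered samples from their group means were 0.14, 0.41, 0.42 and 0.11. In these deviations every array correlated best with its own number among the arrays of the other sort. For Flk1+ array 4 the next was 0.064. In the values themselves some arrays correlated better within their sort, such as Flk1+ array 1 with up to 0.839, against 0.768 with its pair. A feature was called at a Benjamini-Hochberg adjusted p under 0.05, with no fold minimum. Changes between times were tested in 1 fit of all 24 arrays with the number as a block within each time. Scripts were tested on simulated data. Promoters are RefSeq's on GRCm38.p6, 1 or more per gene. Figures used matplotlib 3.10.9 in Python 3.11.15.

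The genes named are Kdr and the 20 largest positive and 20 largest negative called differences with 1 sign in all 4 pairs. Called members of lists are named too, and uncalled members with their values. Between times the rule took Kdr and up to 4 called genes in each direction. Other genes given between times, such as Cdh5, Prdm6, Snai1, Mesp1 and Wnt2, were added outside that rule. The comparison, the 43 lists and the alternatives were chosen with earlier results of these data known. The result of 1 list is not reported here.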

Additional observations from a re-analysis of the deposited data

Results flagged for a closer look

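Among the genes named, 204 groups of 4 arrays were examined for 1 array far from the other 3, and 17 held one; chance flags about 1 in 20 such groups. Array 1 of Flk1- cells lay below its group for Kdr at -1.30, Klhl6 at -0.99, Twist1 at -1.44 and Usp18 at -0.62. Array 2 of Flk1- cells lay below its group for Pmp22 at -2.03 and Cbx7 at 1.62, and above it for Flt1 at 0.74. Array 3 of Flk1- cells was above the others for Igfbp2 at 0.073. Among Flk1+ cells, array 1 was above the others for Klf2 at -1.53 and Hes1 at 1.29 and below them for Jarid2 at 0.43. Array 2 was above the others for Igfbp3 at -2.38, Epcam at -0.78 and Mt1 at -1.57, and below them for Mesp1 at 3.30. Array 3 was above the others for Rhox6 at 0.74 and below them for Cdh2 at 0.51. For Kdr, Klhl6 and Usp18 the low Flk1- array widened the difference of pair 1, and the groups stayed apart without it.

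Of the features with a called change of the sort difference, 5 against 84 h and 173 against 8 d, the naming rule of up to 4 genes per direction took 9, which are given here. The sort difference of Dusp9 was 1.24 lower at 95 h than at 84 h, a value of -1.24. Against 8 d, the difference at 95 h was more positive by 2.58 for Tbx3, 2.15 for Myl7, 2.02 for Ttr and 1.80 for Ackr3. It was more negative for Klf2 with -2.53, Igfbp3 with -2.39, Lefty1 with -2.36 and Adgrg1 with -2.23.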

How the results depend on the processing

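All 151 called features kept their sign in every setting tried. As all had 1 sign in all 4 pairs, leaving out a pair, dropping the pairing or weighting arrays could not turn it. It could turn only on the deposited scale, after quantile normalization or with the probe of largest SD. The count of calls at 95 h was 135 with no replicate block (104 shared), 157 on the deposited scale, 141 after quantile normalization, 136 with the probe of largest SD and 130 with a trended, robust eBayes. It was 552 with array weights, 354 over all 24 arrays with no block and 545 over all 24 with the block. Leaving out 1 pair of 95 h gave 0 to 3 calls, with 1284 to 2294 features at an unadjusted p under 0.05 in limma and fewer residual degrees of freedom; over 24 arrays with the block, added after seeing the data, it gave 485, 417, 384 and 481. At an adjusted p under 0.1, also added later, 289 were called. Kdr stayed between 2.84 and 3.01 and past the threshold except when pair 1, 3 or 4 was left out (2.84, 2.96 and 2.91, against 2.99 without pair 2, with adjusted p of 0.0556, 0.0964 and 0.0608). Of 75 other genes of the naming rule, 15 lost the call with no replicate block, 11 with the probe of largest SD and 7 after quantile normalization. Changed sort differences between 84 h and 95 h numbered 5, but 1 with no replicate block, 0 after quantile normalization, 83 with array weights, 12 without numbers 2 and 4 of 84 h, and 0 to 1 without 1 pair of 95 h. Between 95 h and 8 d they numbered 173, but 93 with no replicate block, 334 after quantile normalization (150 more positive, 184 more negative), 1578 with array weights, 668 without numbers 2 and 4 of 84 h, and 28 to 60 without 1 pair of 95 h. Cdh5, uncalled, changed sign with array weights (0.087) and without pair 1 (0.0089, the range without 1 pair being -0.27 to 0.0089). The cause of these changes was not tested, and signal over background cannot be judged from ratios.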

Other observations

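Interferon-responsive genes were listed after the values had been seen, so they are a description. Of 35 measured, 7 were called lower in Flk1+ cells (0.568% of all features were) and 1 higher (0.298%), with a median of -0.29 against -0.0035 for all features, and 17 were lower in all 4 pairs, as were 11.4% of all features. Bst2, or tetherin, which holds viruses at the cell surface, was at -0.33, -0.74, 0.037 and -0.37 on the Flk1+ arrays and 2.16, 0.60, 1.99 and 1.14 on the Flk1- arrays. The groups did not overlap, and the difference was -1.82 ± 0.21 (SE), 3.54-fold lower (limma, adjusted p = 0.0399). Flk1- arrays 1 and 3 were the high ones. The immunoproteasome subunit Psmb8 followed with -1.09, the guanylate-binding proteins Gbp2 and Gbp3 with -0.78 and -0.67, Tor3a with -0.71, Phf11d with -0.69 and the transcription factor Irf1 with -0.67. The calls of Psmb8, Gbp2, Tor3a and Phf11d were lost without the pairing, and those of Psmb8, Gbp2 and Irf1 after quantile normalization. The 2 probes of Gbp3 gave -1.06 and -0.28. Isg15 had -0.63 and was not called. Usp18, the protease that removes Isg15 from proteins and dampens interferon signalling, had the opposite sign. It was at 0.70, 1.00, 0.72 and 0.80 on the Flk1+ arrays and -0.62, -0.18, -0.17 and -0.14 on the Flk1- arrays, a difference of 1.08 ± 0.11 (adjusted p = 0.0269). Stat2 and Irf9, factors that carry the interferon signal, differed by -0.031 and -0.0027.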
